A study of Mus musculus with 3 samples.

Results

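The genes described here are 34 genes of fatty acid oxidation and lipid storage, chosen by name, among 12880 genes with a value in at least 1 of 3 libraries of macrophages sorted from mouse lung. They are Acsl1, Acsl3, Acsl4 and Acsl5, which activate fatty acids, and Cpt1a, Cpt2 and Crat of the carnitine shuttle. The mitochondrial oxidation genes are Acads, Acadm, Acadl, Acadvl, Echs1, Hadh, Hadha, Hadhb, Acaa2, Decr1, Ech1, Etfa, Etfb and Etfdh, and the peroxisomal ones are Acox3, Ehhadh and Acaa1a. The storage and lipolysis genes are Fabp4, Fabp5, Plin2, Plin3, Pnpla2, Lipe, Lpl, Mgll, Dgat1 and Dgat2. All 34 had a value in all 3 libraries, but the list was drawn up with earlier results of these data known.

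RNA was sequenced from lung macrophages of C57BL/6 LysM-GFP mice, 6 to 8 weeks old, at 0, 4 and 24 h in a model of acute lung injury by nebulized lipopolysaccharide (LPS, a bacterial cell wall component, at 1 mg/ml in saline). Each time point was 1 library, and the number of mice behind it is not given in the sources used here. In these mice the lysozyme M locus drives GFP broadly in myeloid cells. The sorted cells were described as GFP positive, Ly6g negative and CD64 positive, a gate that resident and recruited macrophages could both pass. The column headings also carry CD11b, a surface marker that the sorting protocol leaves out. Whether cells were also selected on CD11b is not known. The labels describe the treatment alike for every sample, so it is not known whether LPS was given to the 0 h mice before sampling.

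Cells burn a fatty acid by first joining it to coenzyme A, moving it into the mitochondrion on carnitine, and then shortening it in repeated rounds of dehydrogenation, hydration, a further dehydrogenation and thiolysis. Peroxisomes run a similar spiral on very long and branched chains. Fatty acids that are not burned are esterified to triglyceride and kept in lipid droplets, from which lipases release them again. Resident alveolar macrophages take up and clear surfactant lipid, and their lipid handling is known to depend on the nuclear receptor PPAR gamma.

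The libraries held 24825976, 20379236 and 25135476 reads at 0, 4 and 24 h, and 12512, 12715 and 12849 genes had a value. Levels are given as normalized reads, that is reads recovered from the deposited values and divided by size factors computed over all 3 libraries. With 1 library per time point no difference has a replicate check, so words such as higher refer to the sequenced libraries alone. Intervals are at 95% and hold only the counting error of reads, and no variation between mice or libraries. PCR copies were not marked by molecular identifiers and reads are not independent molecules, so even the counting error may be larger than the intervals show. The 0 h library stood apart from the others in sex-linked transcripts, with 13705, 4 and 1 reads of Xist and 4, 3994 and 2357 reads of the Y-linked gene Ddx3y at 0, 4 and 24 h. In comparisons with 0 h, time and the sex of the source mice cannot be told apart. The comparison of 24 h against 4 h uses the 0 h library only in the size factors.

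The sorted population also differed between libraries, and these values stand beside all results that follow. Of 20 alveolar macrophage markers measured, 19 had a value at both 4 h and 0 h, and 16 of them were at least 2-fold lower at 4 h. Their summed level was 896314, 323660 and 535416 normalized reads at 0, 4 and 24 h, most of it from Chi3l3 and Cd9, and 3 of the list, Pparg, Cidec and Fabp1, are themselves lipid genes. Of 12 classical monocyte markers, 11 were at least 2-fold higher at 4 h than at 0 h, and the list summed to 107650, 491255 and 97974 normalized reads at 0, 4 and 24 h, led by Fn1 and F13a1. Although the sum at 24 h was below that at 0 h, 10 of the 12 were then at least 2-fold higher than at 0 h. Only 1 was at least 2-fold lower. All 10 neutrophil markers with a value in both libraries were at least 2-fold higher at 4 h than at 0 h, with sums of 5033, 39733 and 8141 at 0, 4 and 24 h, led by Mmp8 and Csf3r. Ly6g, the marker gated against, had no listed value in any library, and only genes with a mean above 10 are listed. In bulk samples fewer cells of a type and less RNA per cell cannot be told apart, and the part of these cell types in the lipid gene results was not tested.

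Markers of other cell types were also read. The adipocyte and lipofibroblast list, of which 6 of 10 genes were measured, summed to 221, 366 and 270 normalized reads at 0, 4 and 24 h, led by Col1a2 and Col1a1, and of 5 genes compared at 4 h and 0 h 2 were at least 2-fold higher and 1 was at least 2-fold lower at 4 h. Of its adipocyte genes, Adipoq, Cfd, Cidea and Retn had no listed value in any library, but Plin1 was measured. Plin1 had 71.0, 2.54 and 44.4 normalized reads at 0, 4 and 24 h, from 76, 2 and 54 reads. It was the gene of this list that was at least 2-fold lower at 4 h. Alveolar epithelial markers summed to 14194, 18746 and 16187, led by Sftpc and Sftpa1, and at 4 h 4 of 10 were at least 2-fold above 0 h and 1 was at least 2-fold below. Endothelial markers summed to 4291, 2298 and 3344, of which Vwf gave most, followed by Pecam1. Without regard to size only 2 of the 10 were below 0 h at 4 h, with a median log2 ratio of 0.40 (1 at least 2-fold above and 1 at least 2-fold below), and at 24 h 5 of 10 were at least 2-fold above 0 h. T and B cell markers summed to 136, 96.5 and 143, with Cd4 the main one, followed by Cd79a, and the part of all 4 lists in the results was not tested.

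At 4 h against 0 h the oxidation genes were lower throughout and the activating enzymes were higher. Of the 34 members, 15 were at least 2-fold lower at 4 h, where 14.3% of all genes with a value were. The members at least 2-fold higher numbered 3, Acsl1, Acsl3 and Lipe, against a background of 15.2%. Without regard to size, 28 members were below their 0 h level, against 49.9% of all genes, and 6 were above it, against 50.1%. All 20 genes of the carnitine shuttle and of mitochondrial and peroxisomal oxidation were among those below, and all 4 Acsl genes, Lipe and Dgat2 were those above. The median log2 ratio of the members was -0.95, and that of all genes was 0.00. Among genes within the members' range of mean levels, 10.3% lay at or past 2-fold lower, 13.1% at or past 2-fold higher and 48.8% below 1. These directions held for all 34 members under each other scaling tried.

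Just inside the 2-fold limit at 4 h were Plin2 at 2.01-fold lower, Hadhb at 2.10-fold lower and Fabp4 at 2.10-fold lower. Just outside it were Hadha at 1.999-fold, Cpt1a at 1.99-fold and Dgat1 at 1.89-fold lower, and Acsl4 at 1.91-fold higher. The authors' deposited table gives log2 fold changes that are shrunken toward 0. By its values 11 members were at -1 or less at 4 h against 0 h, where 9.02% of genes were, and 0 members were at 1 or more, where 8.86% of genes were.

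**Figure D1:**
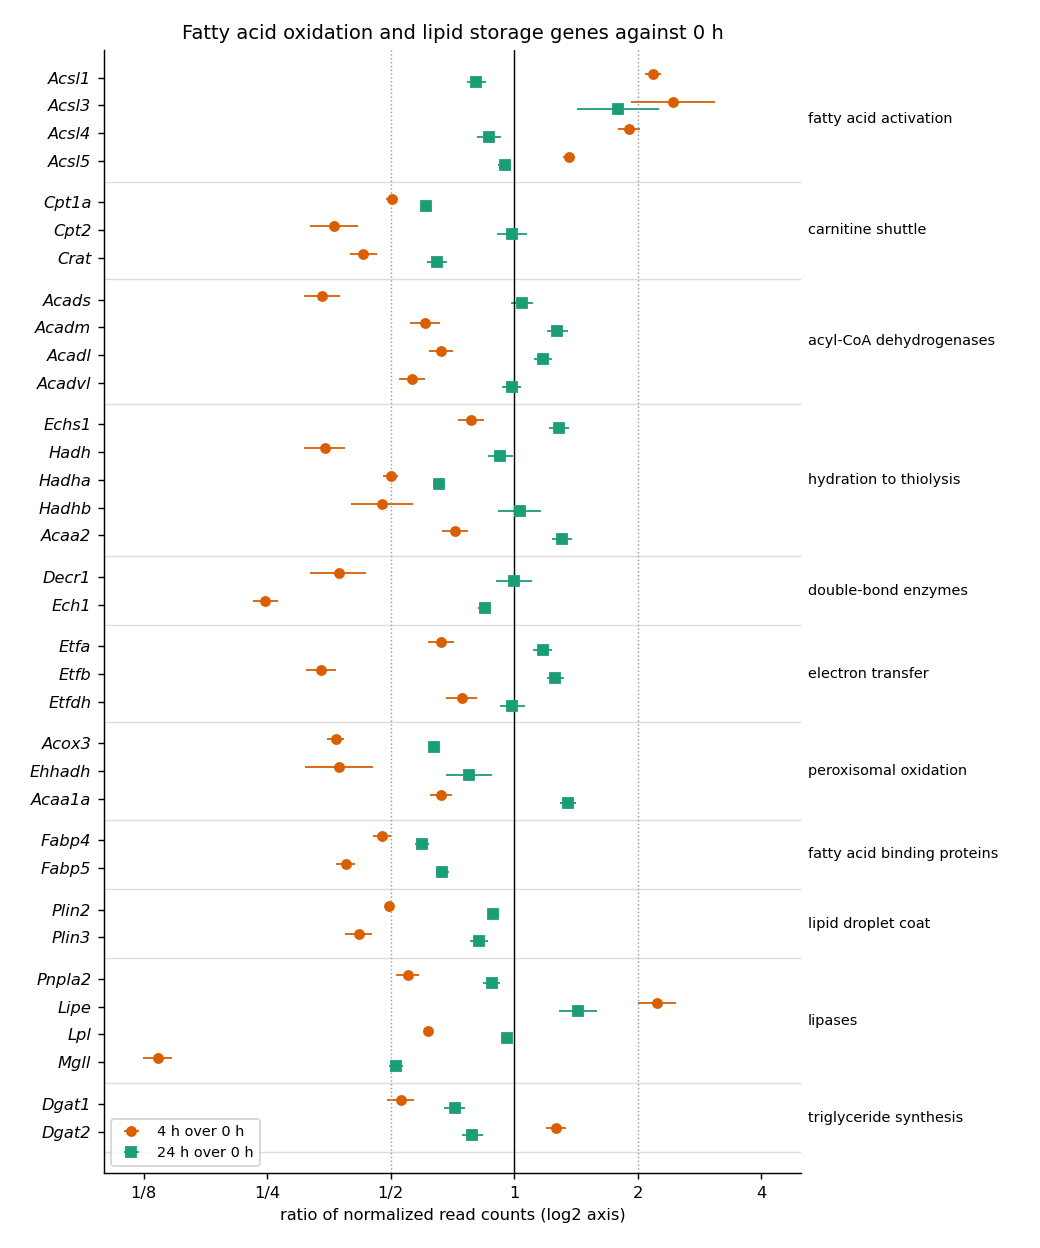
Ratio of normalized reads to 0 h for each of the 34 genes on a log2 axis, grouped by role, with 4 h over 0 h as circles and 24 h over 0 h as squares; bars are 95% counting intervals and dotted lines mark 2-fold. At 4 h the 4 Acsl genes lie right of 1 and all 20 oxidation genes lie left of it, while at 24 h no gene passes a dotted line.

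At 24 h the members were close to their 0 h levels. No member was at least 2-fold higher, against a background of 4.95%, and no member was at least 2-fold lower, against 9.10%. Of the 34, 23 were below and 11 above their 0 h level, against backgrounds of 50.2% and 49.8%, and the median log2 ratio was -0.09 against 0.00 for all genes. Of the genes in the members' range of mean levels, 2.35% were 2-fold higher or more, 7.28% were 2-fold lower or more and 50.7% were below 1. The widest differences were those of Mgll, 1.94-fold lower, and Acsl3, 1.79-fold higher. Centring on 80 ribosomal protein genes shifted all genes by -0.56 on the log2 scale, and 8 members were then at least 2-fold lower at 24 h than at 0 h. With that centring 33 members were below and 1, Acsl3, above its 0 h level, since Lipe and 9 oxidation genes (Acads, Acadm, Acadl, Echs1, Hadhb, Acaa2, Etfa, Etfb and Acaa1a) changed side. Scaling to total reads shifted all genes by 0.17 and turned the members' median to 0.07, with 16 members below and 18 above 0 h. The background shares above do not apply to counts under these other scalings, for which no share of all genes is given here. By the log2 fold changes of the authors' deposited table, 0 members were at 1 or more, where 0.539% of genes were, and 0 were at -1 or less, where 2.14% were.

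Most members were higher at 24 h than at 4 h. At 24 h 11 members were at least 2-fold higher than at 4 h, against 14.4% of all genes, and 2 members, Acsl1 and Acsl4, were at least 2-fold lower, against 17.9%. In all, 28 members were above and 6 below their 4 h level, against backgrounds of 50.1% and 49.9%, with a median log2 ratio of 0.80 against 0.00 for all genes. Among genes in the members' range of mean levels 9.07% were 2-fold higher or more, 17.1% were 2-fold lower or more and 53.8% were below 1. All 20 oxidation genes were above 1 in this comparison. With ribosomal centring, which shifted all genes by -0.49, the count of members at least 2-fold higher was 4 and that of members at least 2-fold lower was 5, and 5 members (Cpt1a, Hadha, Etfdh, Fabp4 and Dgat1) were then below their 4 h level. No share of all genes with that centring is given here. By the log2 fold changes of the authors' deposited table, 7 members were at 1 or more, where 7.26% of genes were, and 1 was at -1 or less, where 10.2% were. The comparison shares its 4 h library with that of 4 h against 0 h, so the opposite directions in these comparisons are not independent observations.

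**Figure D2:**
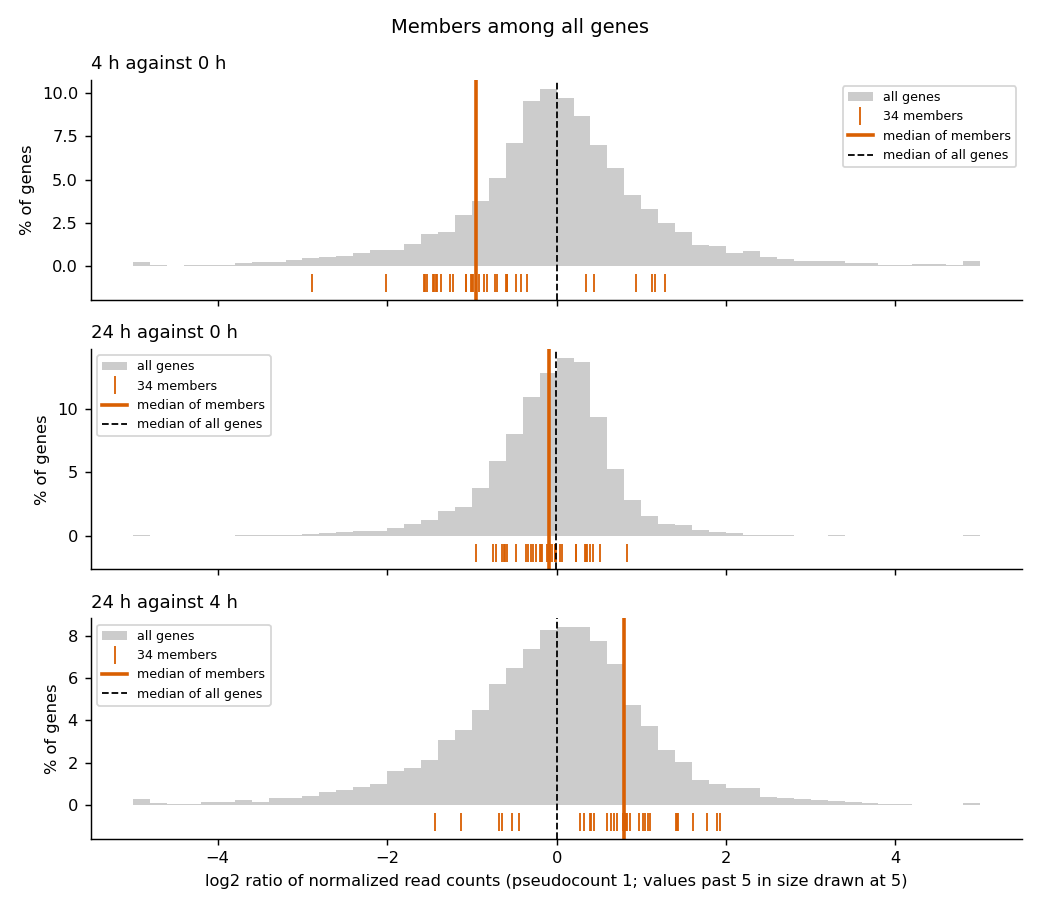
Percent of all genes by log2 ratio of normalized reads (grey histogram, pseudocount 1) in the 3 comparisons, with a tick for each of the 34 members and lines at the medians. The members' median is -0.95 in the top panel, -0.09 in the middle panel and 0.80 in the bottom panel, while the median of all genes lies at 0.00 in each.

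Benjamini-Hochberg adjustment of the p-values in the authors' deposited table, made with DESeq2 on 1 library per time point, left no gene of any kind below 0.05. The lowest adjusted value was 0.592 for 4 h over 0 h, 0.99993 for 24 h over 0 h and 0.998 for 24 h over 4 h. Among the members, Mgll had the lowest unadjusted p in the authors' deposited table from DESeq2, 0.0159 at 4 h against 0 h, and no other member was below 0.05 there. Its adjusted value over all genes was 0.766.

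The members took 0.853% of all reads at 0 h (0.850 to 0.857), 0.457% at 4 h (0.454 to 0.460) and 0.846% at 24 h (0.842 to 0.849). Lpl alone carried a large share of them, and without it the figures were 0.538%, 0.283% and 0.506%. The 20 oxidation genes took 0.254% at 0 h, 0.110% at 4 h and 0.249% at 24 h. The 4 activating enzymes took 0.0449%, 0.0671% and 0.0458%, the highest of the 3 being at 4 h. The 10 storage and lipolysis genes took 0.555%, 0.280% and 0.551%.

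Levels of different genes were compared per kilobase of the longest principal protein-coding transcript. On that scale Lpl stood first in every library, with 17739, 10920 and 17067 normalized reads per kilobase at 0, 4 and 24 h, and Plin2 came next with 14329, 7117 and 12698. Acsl3 was last at 0 h and at 24 h, with 27.2 and 48.7 normalized reads per kilobase, and Ehhadh was last at 4 h with 60.5. Among oxidation genes Ech1 stood highest at 0 h with 4055, Cpt1a at 4 h with 1303 and Etfb at 24 h with 3740. Acsl5 was 14th of the 34 at 0 h and 5th at 4 h, and Acsl1 was 25th at 0 h and 6th at 4 h. Mgll moved the other way in this order, standing 12th at 0 h and 29th at 4 h.

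The acyl-CoA synthetases join long-chain fatty acids to coenzyme A, a step that serves oxidation and storage alike. Acsl1 (chr8:46471037-46536051, mm10, plus strand), the main isoform of many oxidative tissues, had 2665, 5811 and 2154 normalized reads at 0, 4 and 24 h. It was 2.18-fold higher at 4 h than at 0 h (2.08 to 2.29) and 2.70-fold lower at 24 h than at 4 h (2.57 to 2.83). Its 4 h library was thus the highest of the 3, and its 24 h level was below that at 0 h by 1.24-fold (1.17 to 1.31). Acsl4 (chrX:142317993-142390535, mm10, minus strand), which prefers arachidonic acid, had 1658, 3166 and 1442 normalized reads at 0, 4 and 24 h. It followed the same order of libraries, 1.91-fold higher at 4 h than at 0 h (1.80 to 2.03) and 2.20-fold lower at 24 h than at 4 h (2.06 to 2.33). Acsl4 is the only member on the X chromosome, and in the comparison of 24 h with 4 h the library with Xist reads is used only in the size factors.

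Per kilobase, Acsl5 stood highest of the 4 in each library, and Acsl3, which sits on the endoplasmic reticulum and on lipid droplets, stood lowest. Acsl5 had 5978, 8129 and 5665 normalized reads at 0, 4 and 24 h, 1.36-fold higher at 4 h than at 0 h (1.31 to 1.41). Acsl3 had 107, 261 and 192, from 115, 206 and 234 reads. It was 2.43-fold higher at 4 h than at 0 h (1.93 to 3.09), an interval that reaches below 2-fold. Acsl3 was also the Acsl gene whose 24 h level remained above that at 0 h, by 1.79-fold (1.43 to 2.26).

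The carnitine shuttle carries activated fatty acids across the mitochondrial membranes, and its 3 genes were lowest at 4 h. Cpt1a (chr19:3323301-3385733, mm10, plus strand), the rate-controlling transferase of the outer membrane, had 11171, 5626 and 6828 normalized reads at 0, 4 and 24 h. It was 1.99-fold lower at 4 h (1.92 to 2.06) and still 1.64-fold lower at 24 h (1.59 to 1.68), both against 0 h. Cpt2, the inner-membrane partner that hands the acyl group back to coenzyme A, had 970, 353 and 958. Its 4 h level was 2.75-fold below that at 0 h (2.41 to 3.15), while its 24 h level lay 1.01-fold below 0 h, with an interval that included no difference (0.931 to 1.10). Crat, which forms acetylcarnitine, had 2780, 1193 and 1806 normalized reads, 2.33-fold lower at 4 h than at 0 h (2.16 to 2.51) and 1.54-fold lower at 24 h than at 0 h (1.46 to 1.63). Cpt1a and Crat were therefore still below 0 h at 24 h, and Cpt2 was not with these size factors. With ribosomal centring Cpt2 too was below 0 h at 24 h, at a log2 ratio of -0.58, and with scaling to total reads its log2 ratio was 0.15. The Cpt1a to Cpt2 read ratio was 11.5, 15.9 and 7.13 at 0, 4 and 24 h.

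The acyl-CoA dehydrogenases start each round of the spiral and are named by the chain length they favour. Acads, the short-chain enzyme, had 1803, 614 and 1884 normalized reads at 0, 4 and 24 h, and was 2.94-fold lower at 4 h than at 0 h (2.66 to 3.25). Acadm, the medium-chain enzyme, had 1733, 1050 and 2210, and was 1.65-fold lower at 4 h than at 0 h (1.52 to 1.79). The long-chain and very-long-chain enzymes Acadl and Acadvl lay 1.51-fold (1.41 to 1.61) and 1.77-fold (1.65 to 1.90) lower at 4 h. Acads thus showed the widest difference of the 4 at 4 h, and the interval did not overlap those of the other 3. At 24 h Acadm was above its 0 h level by 1.28-fold (1.20 to 1.35) and Acadl by 1.17-fold (1.11 to 1.24), while the intervals of Acads and Acadvl included no difference from 0 h. With ribosomal centring Acads, Acadm and Acadl were below 0 h at 24 h.

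The enzymes that complete each round varied more widely at 4 h. Hadh, the hydroxyacyl-CoA dehydrogenase of short and medium chains, had 1360, 470 and 1259 normalized reads at 0, 4 and 24 h, 2.90-fold lower at 4 h than at 0 h (2.58 to 3.25). Echs1, the short-chain enoyl-CoA hydratase that precedes it, had 1820, 1428 and 2340, only 1.27-fold lower at 4 h (1.18 to 1.37), and Acaa2, the thiolase that follows it, had 1943, 1396 and 2548, 1.39-fold lower at 4 h (1.29 to 1.50). Of these 3 consecutive enzymes the middle one was much the lowest at 4 h relative to 0 h. At 24 h Echs1 and Acaa2 were above 0 h by 1.29-fold (1.21 to 1.36) and 1.31-fold (1.24 to 1.39), but below it with ribosomal centring.

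Hadha and Hadhb encode the alpha and beta subunits of the mitochondrial trifunctional protein, which handles long chains, and the subunits assemble into a complex. The genes lie head to head on chromosome 5 of mm10, Hadha on the minus strand (chr5:30118304-30154980) and Hadhb on the plus strand (chr5:30155253-30184593), with 273 bases between their annotated starts. The stretch between their outermost annotated exons is shown because both genes are read outward from it, in the plus-strand orientation, from RefSeq (GRCm38.p6), chr5:30155163-30155247, with 69.4% G and C:
Hadha and Hadhb: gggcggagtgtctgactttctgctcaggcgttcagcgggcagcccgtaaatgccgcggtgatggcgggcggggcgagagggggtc
Hadha had 7187, 3595 and 4708 normalized reads at 0, 4 and 24 h, and Hadhb had 479, 228 and 494. They lay 1.999-fold (1.91 to 2.09) and 2.10-fold (1.77 to 2.50) lower at 4 h than at 0 h, so their ratio moved by 1.05-fold (0.880 to 1.25), within counting error. At 24 h Hadhb lay 1.03-fold above 0 h (0.915 to 1.16), within counting error, and Hadha was 1.53-fold lower than at 0 h (1.47 to 1.58). The read ratio of Hadha to Hadhb was 15.0, 15.7 and 9.53 at 0, 4 and 24 h, or 7.65, 8.02 and 4.86 per kilobase, so the genes of this shared region kept their balance at 4 h and not at 24 h. How reads shared with other copies of these genes were assigned is not given in the sources used here.

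Unsaturated fatty acids need extra enzymes for their double bonds, and the members among them are Ech1 and Decr1. Ech1 (chr7:28825338-28832239, mm10, plus strand), a dienoyl-CoA isomerase, had 5137, 1272 and 4354 normalized reads at 0, 4 and 24 h. It was 4.04-fold lower at 4 h than at 0 h (3.78 to 4.32), the widest difference of any oxidation member. Decr1, the mitochondrial dienoyl-CoA reductase, had 700, 261 and 699, 2.68-fold lower at 4 h (2.29 to 3.14), and its 24 h level differed from that at 0 h by less than the counting error.

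The electron transfer flavoprotein takes electrons from the acyl-CoA dehydrogenases, and its dehydrogenase passes them to ubiquinone. Its beta subunit Etfb (chr7:43444072-43457800, mm10, plus strand) had 2648, 895 and 3339 normalized reads at 0, 4 and 24 h, 2.96-fold lower at 4 h than at 0 h (2.72 to 3.22) and 1.26-fold higher at 24 h than at 0 h (1.20 to 1.32), though below 0 h with ribosomal centring. The alpha subunit Etfa had 2113, 1400 and 2478, 1.51-fold lower at 4 h (1.40 to 1.62). The subunits form a heterodimer, and the Etfa to Etfb read ratio was 0.798, 1.57 and 0.742 at 0, 4 and 24 h, a 1.96-fold difference between 4 h and 0 h (1.76 to 2.19). Etfdh, the ubiquinone-linked enzyme, had 1348, 1004 and 1334, 1.34-fold lower at 4 h (1.23 to 1.47).

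In peroxisomes Acox3 oxidizes branched chains, Ehhadh combines the hydratase and dehydrogenase steps, and Acaa1a is a thiolase. Acox3 had 7473, 2748 and 4765 normalized reads at 0, 4 and 24 h, 2.72-fold lower at 4 h (2.59 to 2.85) and 1.57-fold lower at 24 h (1.52 to 1.62), both against 0 h. Ehhadh had 481, 180 and 373, 2.67-fold lower at 4 h than at 0 h (2.21 to 3.24). Acaa1a had 2908, 1932 and 3927, 1.51-fold lower at 4 h (1.42 to 1.60) and 1.35-fold higher at 24 h (1.29 to 1.41), both against 0 h. At 24 h Acaa1a thus lay on the other side of 0 h from Acox3 and Ehhadh, but with ribosomal centring all 3 were below it, Acaa1a at a log2 ratio of -0.13. Acaa1a has a near-identical paralog, Acaa1b, which had 1847, 316 and 1290 normalized reads, and how reads shared by the pair were counted is not given in the sources used here.

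**Figure D3:**
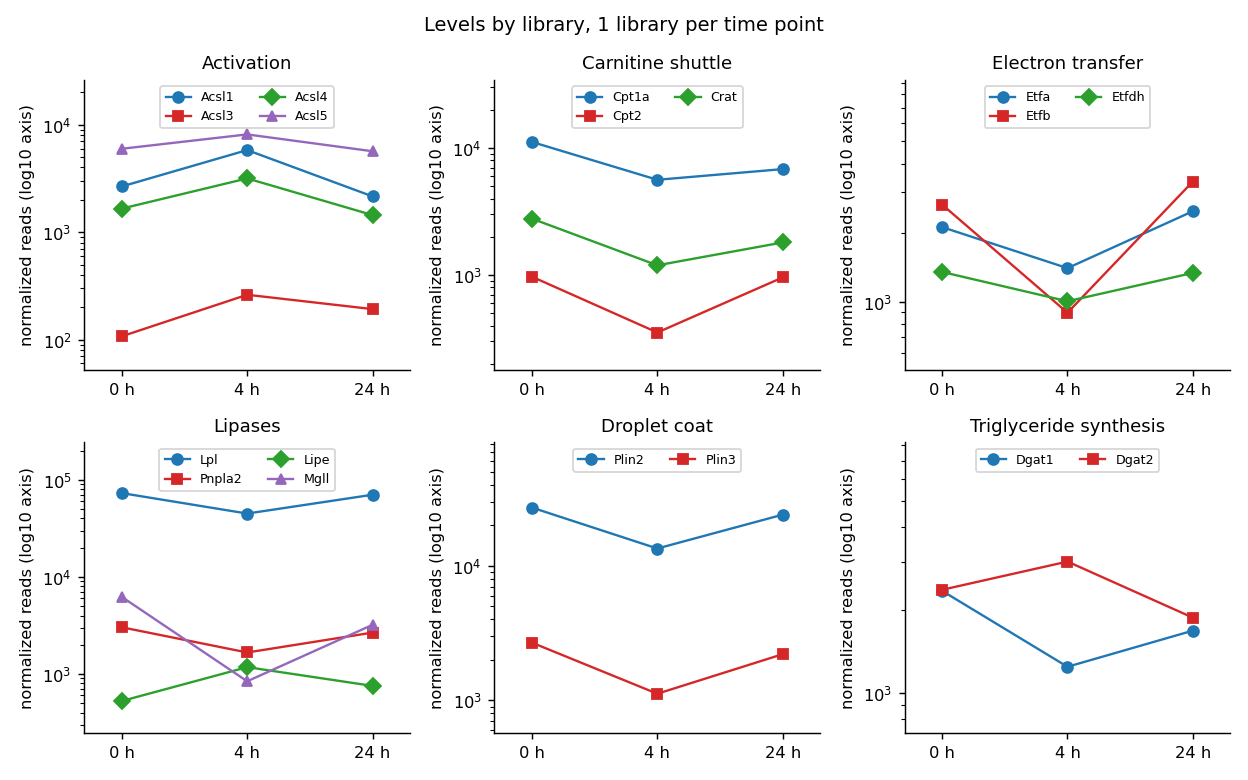
Normalized reads (log10 axes, a separate range in each panel) at 0, 4 and 24 h for 18 members in 6 panels by role, with 1 library per time point; lines join the libraries of a gene. The Acsl genes peak at 4 h, Mgll and Etfb dip furthest in their panels, and Lipe and Dgat2 are highest at 4 h while their partners are lower.

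The fatty acid binding proteins ferry fatty acids through the cytosol. Fabp4, widely used as a marker of adipocytes and macrophages, had 5494, 2616 and 3271 normalized reads at 0, 4 and 24 h, 2.10-fold lower at 4 h (1.997 to 2.21) and 1.68-fold lower at 24 h (1.61 to 1.75), both against 0 h. Fabp5 had 5839, 2270 and 3903, 2.57-fold lower at 4 h (2.44 to 2.71) and 1.50-fold lower at 24 h (1.44 to 1.55). Both were still below 0 h at 24 h. Fabp5 has processed pseudogenes, and its level is uncertain to the extent that reads were shared with them.

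Perilipins coat the lipid droplet. Plin2, the main coat protein of droplets outside fat tissue, had 27053, 13437 and 23974 normalized reads at 0, 4 and 24 h, 2.01-fold lower at 4 h (1.97 to 2.06) and 1.13-fold lower at 24 h (1.11 to 1.15), both against 0 h. Plin3, which moves to droplets from the cytosol, had 2685, 1121 and 2205, 2.40-fold lower at 4 h (2.22 to 2.59). Both were lowest at 4 h, and the Plin2 to Plin3 read ratio was 10.1, 11.99 and 10.9 at 0, 4 and 24 h.

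The lipases differed in direction. Mgll (chr6:88724412-88828360, mm10, plus strand), which cleaves monoacylglycerol in the last step of triglyceride breakdown, had 6218, 840 and 3209 normalized reads at 0, 4 and 24 h. It was 7.40-fold lower at 4 h than at 0 h (6.83 to 8.03), the widest difference among the 34 genes, and 1.94-fold lower at 24 h than at 0 h (1.86 to 2.02). Lipe (chr7:25379527-25390112, mm10, minus strand), hormone-sensitive lipase, acts on diacylglycerol and cholesteryl ester. It had 527, 1175 and 754 normalized reads, 2.23-fold higher at 4 h (2.01 to 2.48) and 1.43-fold higher at 24 h (1.29 to 1.59), both against 0 h, and with ribosomal centring its log2 ratio at 24 h was -0.04. Pnpla2, adipose triglyceride lipase, which starts triglyceride breakdown, had 3027, 1664 and 2668, 1.82-fold lower at 4 h than at 0 h (1.71 to 1.94). Of the enzymes for the 3 successive steps of triglyceride breakdown, the middle one was higher at 4 h than at 0 h and the others were lower. Lpl, which is secreted and releases fatty acids from lipoproteins, had 72996, 44938 and 70232 normalized reads, 1.62-fold lower at 4 h than at 0 h (1.60 to 1.64).

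Dgat1 and Dgat2 catalyse the same last step of triglyceride synthesis with unrelated proteins. Dgat1 had 2350, 1243 and 1683 normalized reads at 0, 4 and 24 h, 1.89-fold lower at 4 h than at 0 h (1.76 to 2.04). Dgat2 had 2371, 3005 and 1877, 1.27-fold higher at 4 h (1.20 to 1.34) and 1.26-fold lower at 24 h (1.19 to 1.34), both against 0 h. The Dgat2 to Dgat1 read ratio was 1.01, 2.42 and 1.11 at 0, 4 and 24 h, so it was furthest from 1 at 4 h.

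Ratios of reads between related members do not depend on the scaling of the libraries. Of 13 pairs, 4 moved at least 1.5-fold at 4 h against 0 h. Lipe over Pnpla2 moved most, by 4.06-fold (3.59 to 4.59), followed by Dgat2 over Dgat1 at 2.40-fold (2.18 to 2.63). Etfa over Etfb moved by 1.96-fold and Acadm over Acads by 1.78-fold (1.56 to 2.02). Between 24 h and 0 h 4 pairs moved that far, and Lipe over Pnpla2, by 1.62-fold (1.45 to 1.82), was the only pair on both lists. The other 3 at 24 h were Acsl1 over Acsl3 at 2.22-fold lower (1.76 to 2.79), Cpt1a over Cpt2 at 1.62-fold lower (1.48 to 1.76) and Hadha over Hadhb at 1.57-fold lower (1.39 to 1.78). Of the 13 pairs, 7 moved at least 1.5-fold between 24 h and 4 h. No share for pairs of other genes is given here, so these counts of pairs have no background beside them.

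**Figure D4:**
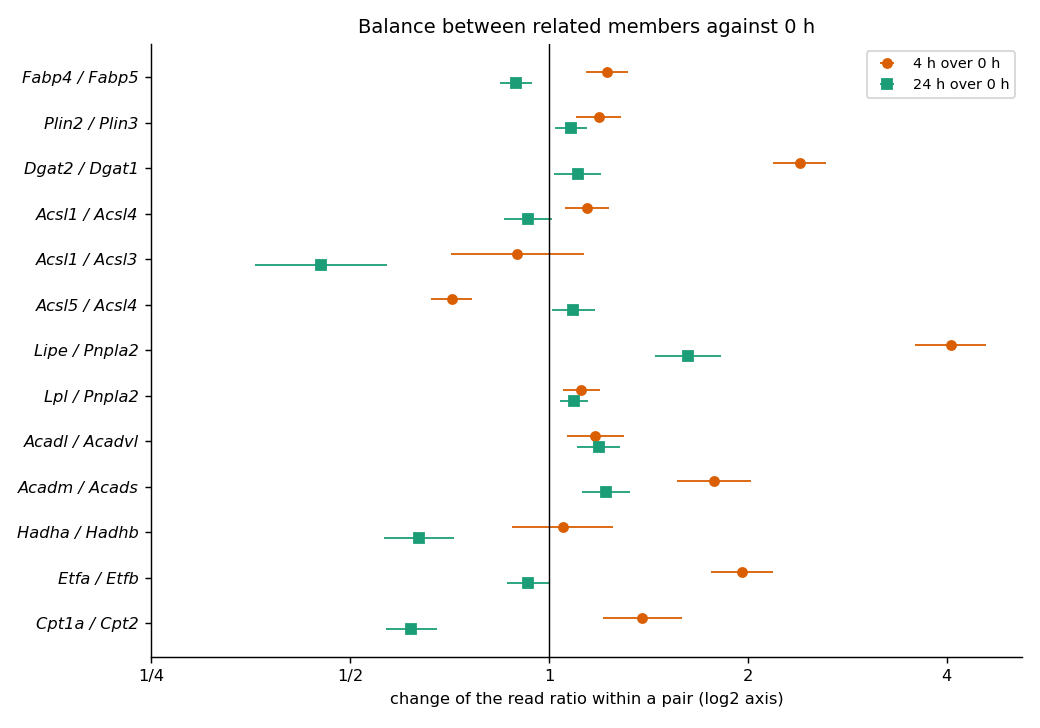
Change against 0 h of the ratio of reads within 13 pairs of related members on a log2 axis, with 4 h over 0 h as circles, 24 h over 0 h as squares and 95% counting intervals as bars. Lipe over Pnpla2 lies furthest to the right at 4 h, at 4.06, and Acsl1 over Acsl3 furthest to the left at 24 h.

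Promoter sequence from RefSeq (GRCm38.p6), 250 bases before to 50 after each annotated start, was held for 26 of the 34 members. It was searched on both strands for motifs of factors known to act on lipid genes or in macrophages. The hexamer AGGTCA of nuclear receptors was in the promoters of 5 of the 26 (Acadm, Acadvl, Cpt1a, Echs1 and Plin2), against 18.1% of 27025 genes. Its direct repeat, in which 2 copies of AGGTCA are parted by 1 base of any kind, the element bound by PPAR and RXR pairs, was found with at most 2 mismatches in 3 (Echs1, Etfa and Plin2), against 4.40% of genes. The hexamer lies within the direct repeat in Echs1 and Plin2. The extended hexamer TCAAGGTCA of estrogen-related receptors was in 0 of the 26, against 0.466% of genes, and GAGGAAGT of the macrophage factor PU.1 was in 0, against 3.69%. The lysosomal element, GTCAC followed directly by GTGAC, with at most 2 mismatches, was in 3 (Echs1, Mgll and Plin2), against 11.4%, and in Echs1 it overlaps the direct repeat. The kappaB motif was in 4 (Etfa, Lipe, Plin2 and Pnpla2), against 9.55%. These matches describe letters in the window and not sites in use.

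The sequences shown are those of members lower at 4 h whose windows hold a direct repeat or a kappaB match, with the matches in capitals, 5′ to 3′ on the gene's strand. Plin2 is the stretch upstream of the annotated start (chr4:86670061-86670309, minus strand), where the capitals mark first the direct repeat and then the kappaB match, both on the opposite strand. For Echs1 (chr7:140116478-140116518, minus strand) the capitals mark the direct repeat on the strand shown. For Etfa (chr9:55512294-55512334, minus strand) they mark the direct repeat on the opposite strand, and the kappaB match of Etfa lies outside the stretch shown. For Pnpla2 (chr7:141455011-141455048, plus strand) they mark the kappaB match.
Plin2: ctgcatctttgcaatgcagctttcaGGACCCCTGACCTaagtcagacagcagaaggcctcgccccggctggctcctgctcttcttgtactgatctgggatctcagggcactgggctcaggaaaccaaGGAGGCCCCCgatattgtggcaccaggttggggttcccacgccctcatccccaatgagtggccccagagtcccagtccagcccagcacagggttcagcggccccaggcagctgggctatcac
Echs1: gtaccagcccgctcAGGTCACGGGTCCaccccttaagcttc
Etfa: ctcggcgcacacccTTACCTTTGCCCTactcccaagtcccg
Pnpla2: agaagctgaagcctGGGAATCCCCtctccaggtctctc
The 3 genes with a direct repeat differed in their 4 h level relative to 0 h. Plin2 lay 2.01-fold lower, Etfa 1.51-fold lower and Echs1 1.27-fold lower. Plin2 and Pnpla2, with a kappaB match, were lower at 4 h than at 0 h, as was Etfa, whereas Lipe was higher.

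The rest of the pathway was read from 5 further gene lists. Of all genes, 14.3% were at least 2-fold lower and 15.2% at least 2-fold higher at 4 h against 0 h. These shares were 9.10% and 4.95% at 24 h against 0 h, and 17.9% and 14.4% at 24 h against 4 h. Among other oxidation genes, 36 of 39 were measured, and at 4 h against 0 h 12 were at least 2-fold lower and none was at least 2-fold higher, with a median log2 ratio of -0.66. Acot1, an acyl-CoA thioesterase, had 29.2 normalized reads at 4 h, against 407 at 0 h. Pecr, a peroxisomal enoyl-CoA reductase, had 29.2 at 4 h, against 299 at 0 h. At 24 h none of the 36 was past 2-fold in either direction against 0 h. Set against 4 h, 11 of the 36 were at least 2-fold higher at 24 h, and none was at least 2-fold lower.

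Of other lipid droplet and storage genes 28 of 35 were measured, and 11 were at least 2-fold lower and 1 at least 2-fold higher at 4 h than at 0 h. Cidec, which fuses lipid droplets and is also on the alveolar macrophage list, had 183 normalized reads at 4 h, against 5586 at 0 h. Lpin1, a phosphatidate phosphatase of triglyceride synthesis, had 463 at 4 h, against 6268 at 0 h. Soat2, which esterifies cholesterol, went the other way, with 823 at 4 h against 29.9 at 0 h. At 24 h 4 genes of this list were at least 2-fold lower than at 0 h and 1 at least 2-fold higher. Hilpda, a hypoxia-inducible inhibitor of adipose triglyceride lipase, had the lowest ratio to 0 h of those, with 1727 normalized reads at 24 h, against 7488 at 0 h.

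Lipid uptake genes lay on both sides of 0 h at 4 h. Of 13 uptake genes with a value at 4 h and 0 h, 3 were at least 2-fold lower at 4 h and another 3 were at least 2-fold higher. The shares of all genes were 14.3% and 15.2%. Msr1, a scavenger receptor, had 21937 normalized reads at 4 h, against 1355 at 0 h. Angptl4, a secreted inhibitor of lipoprotein lipase, had 430 at 4 h, against 4126 at 0 h, and Fabp1 had 405 at 4 h, against 2955 at 0 h. The scavenger receptor Cd36, named after its values were seen, had 9881, 9628 and 9797 at 0, 4 and 24 h. At 24 h 2 uptake genes were at least 2-fold higher than at 0 h and 2 were at least 2-fold lower, the last being Lrp1 with 24154 normalized reads at 24 h, against 66222 at 0 h, and Olr1 with 5704 at 24 h, against 15273 at 0 h.

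Of 16 fatty acid synthesis genes compared at 4 h and 0 h, 13 were below their 0 h level at 4 h, against 49.9% of all genes. Of these 16, 4 were at least 2-fold lower and 1 at least 2-fold higher at 4 h, against 14.3% and 15.2% of all genes. Fads1, a fatty acid desaturase, had 95.2 normalized reads at 4 h, against 374 at 0 h, and Slc25a1, the mitochondrial citrate carrier, had 679 at 4 h, against 1417 at 0 h. At 24 h 1 synthesis gene was at least 2-fold lower than at 0 h and none was at least 2-fold higher. It was Fasn, fatty acid synthase, with 1082 normalized reads at 24 h, against 2798 at 0 h.

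Regulators of lipid oxidation were measured for 20 of 22 genes, and 5 were at least 2-fold lower and 1 at least 2-fold higher at 4 h than at 0 h. The 20 include a gene listed as Med1 at chr6:115840697-115853341 (mm10). That position does not overlap the annotated Med1 gene, so the entry may be a different gene and not a lipid regulator. Pparg, the receptor that drives lipid genes in alveolar macrophages, had 1326 normalized reads at 4 h, against 5967 at 0 h, and 4805 at 24 h. Cebpa, a transcription factor of myeloid and fat cells, had 1493 at 4 h, against 6810 at 0 h. Sirt1, a deacetylase, was the gene that was higher, with 1516 at 4 h, against 655 at 0 h. At 24 h 4 regulators were at least 2-fold lower than at 0 h. Among them Ppargc1b, a coactivator of oxidative genes, had 145 at 24 h, against 336 at 0 h. Ppara and Ppargc1a had no listed value in any library.

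**Figure D5:**
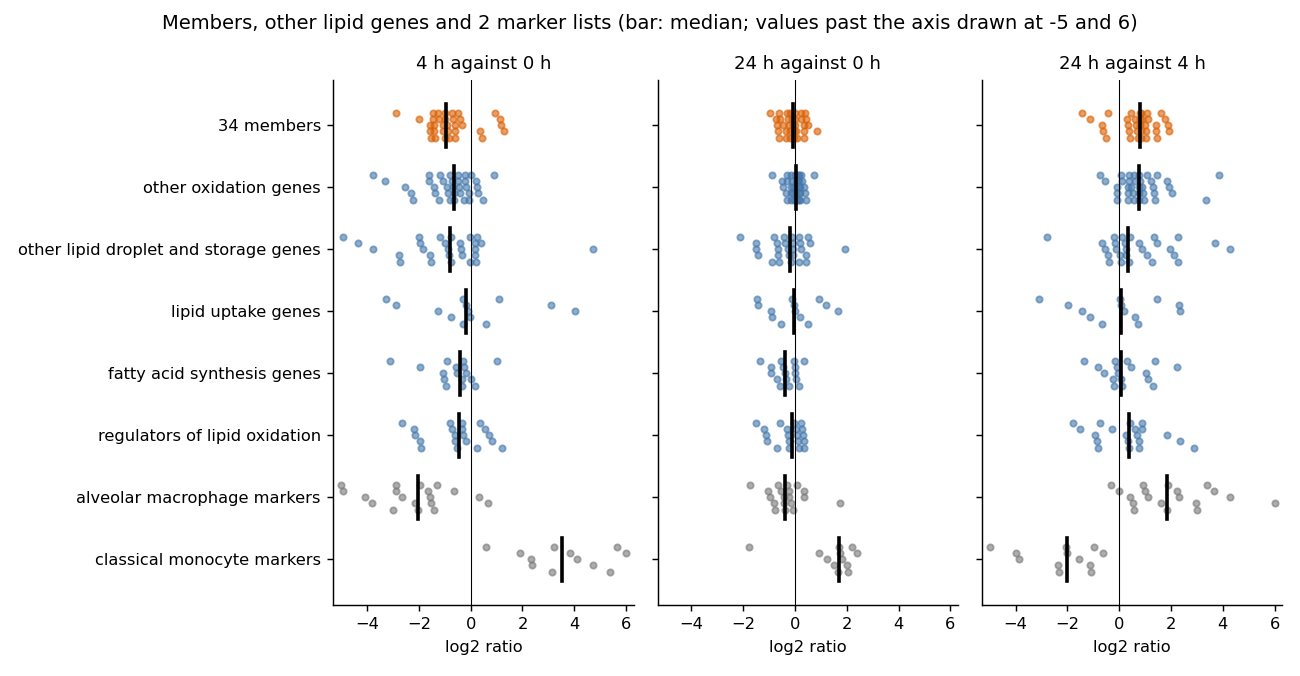
Log2 ratio of normalized reads for each gene of the 34 members, 5 further lipid gene lists and 2 marker lists in the 3 comparisons; points are genes, bars are medians, and values past the axis are drawn at its ends. At 4 h against 0 h the medians are -0.95 for the members, -0.66 for other oxidation genes, -2.02 for alveolar macrophage markers and 3.53 for classical monocyte markers.

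The members' medians lay nearer to 0 than those of the macrophage and monocyte markers. The median log2 ratio at 4 h against 0 h was -2.02 for the alveolar macrophage markers and 3.53 for the classical monocyte markers, beside -0.95 for the members. At 24 h against 0 h the medians were -0.40 for the alveolar macrophage markers, 1.71 for the classical monocyte markers and -0.09 for the members. At 24 h, 10 of 12 classical monocyte markers were at least 2-fold higher than at 0 h, while no member was past 2-fold. Lipe, Dgat2 and the 4 Acsl genes were higher at 4 h than at 0 h, as all 12 monocyte markers were, and the part of the monocyte markers in these values was not tested.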

How the data were processed

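Per the labels' protocols, lungs were digested for 50 min at 37 degrees and the sorted cells' RNA was sequenced. Column headings also carry CD11b, a surface marker that the protocol leaves out. DESeq2 and the build mm10 are named, per the submitters' processing notes, while the aligner and read counter are unknown (not given in the sources used here).

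The authors deposited 3 tables, each of 2 libraries, with normalized signal values, log2 fold changes and p-values; the log2 fold changes are shrunken toward 0, and the p-values are unadjusted. Each deposited signal value, divided by its column's step, came within 0.001 of a whole number of reads (100% of values). Only genes with a mean above 10 are listed. A column headed 4 h in the table of 0 h and 24 h held the 0 h reads in 12310 of 12310 shared genes, and 0.530% of its genes equalled the 4 h library. This 1 column was assigned to no library, and 20 repeated lines were dropped. Table starts count from 0 and were raised by 1.

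These reads were scaled by median-of-ratios factors (0 h 1.07, 4 h 0.788, 24 h 1.22) from the 12481 genes valued in every library, with Python 3.11.15, numpy 2.4.6, pandas 2.3.3 and scipy 1.17.1. Folds are ratios of these values with Clopper-Pearson intervals, changes of a ratio within a pair have Woolf intervals, and log2 ratios use a pseudocount of 1. No count model was fitted and no list was tested, because without replicates there are no residual degrees of freedom. The steps were tested on simulated counts of 12481 genes, of which 200 were changed 4-fold. Of these, 99.0% passed 2-fold at 4 h against 0 h. The simulation held counting error only and no other variation between libraries, so it does not measure how reliable the differences in the data are. TMM factors came from edgeR 4.0.16. Transcript lengths came from GENCODE annotation of mm10.

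The members and lists were chosen with earlier results of these data known. All 34 members are named, and from each further list, in the comparisons with 0 h, the 2 genes furthest past 2-fold in each direction with a mean of at least 100, or the most abundant gene where none was past 2-fold, and the 2 most abundant markers. Some genes that this rule picks are not reported here.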

Additional observations from a re-analysis of the deposited data

Results flagged for a closer look

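For 7 members the 4 h and 24 h libraries lay on opposite sides of the 0 h library by at least 1.2-fold each, a minimum chosen after the values were seen. Each of these differences between time points was not tested, and both comparisons share the 0 h library. No share of all genes under the same rule is given here, so the count of 7 has no background beside it. Acsl1 and Dgat2 were above 0 h at 4 h and below it at 24 h. Acsl1 was at 2.18 times its 0 h level at 4 h and at 0.808 times at 24 h, and Dgat2 was at 1.27 times at 4 h and at 0.792 times at 24 h. With scaling to total reads the log2 ratio to 0 h of Acsl1 at 24 h was -0.14. Those of Dgat2 were 0.18 at 4 h and -0.17 at 24 h, and each of these values was short of 1.2-fold.

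The other 5 were oxidation genes that were below 0 h at 4 h and above it at 24 h. Etfb was at 0.338 times its 0 h level at 4 h and at 1.26 times at 24 h, the widest span of the 5. Acadm was at 0.606 and 1.28 times, Echs1 at 0.785 and 1.29 times, Acaa2 at 0.719 and 1.31 times and Acaa1a at 0.664 and 1.35 times, at 4 h and 24 h in each case. With ribosomal centring all genes moved by -0.56 on the log2 scale at 24 h against 0 h, and the 5 oxidation genes were then below 0 h at both times.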

How the results depend on the processing

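No member past 2-fold changed direction under another scaling. At 4 h against 0 h the count of members at least 2-fold lower was 15, and it ran from 11 by the deposited log2 fold changes to 19 with scaling to total reads; the count at least 2-fold higher was 3, and 0 by the deposited values. The median of -0.95 became -1.11 with total reads and -0.79 by the deposited values. At 24 h against 0 h total reads gave 1 member at least 2-fold higher, Acsl3, and a median of 0.0723, opposite in sign to -0.09, while ribosomal centring gave 8 at least 2-fold lower and a median of -0.65. At 24 h against 4 h the count at least 2-fold higher of 11 became 21 with total reads, 4 with ribosomal centring, 7 by the deposited values and 7 where the whole interval had to pass 2-fold. The count at least 2-fold lower of 2 became 1, 5 and 1 with total reads, ribosomal centring and the deposited values, and the median of 0.80 became 1.12, 0.31 and 0.66. Shares of reads outside the 10 most abundant genes were 0.928%, 0.486% and 0.919% at 0, 4 and 24 h. Part of these shifts follows from the scalings, which moved all genes by up to 0.56 on the log2 scale, and from the shrinkage of the deposited values. Shares of all genes past 2-fold are given only with the median-of-ratios factors and by the deposited values, so counts under the other scalings have no background. TMM and a minimum mean of 100 kept each count of members past 2-fold within 1.5 times and each median's sign, and a pseudocount of 10, tried on the medians alone, kept their sign.

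No paired analysis was possible because each time point is 1 library with no replicate number in the labels. Depth limits Acsl3 (115 reads at 0 h), Ehhadh (142 reads at 4 h) and Hadhb (180 reads at 4 h) most.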
